A study of Mus musculus with 12 samples.

Results

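The genes described here are mouse transcripts of the 2-cell embryo that have been linked to MERVL, other than Dux and the Zscan4 copies. They were listed by symbol, 47 in all, and a listed gene was taken where its symbol stood in the count tables of both stages. Of the 47 symbols, 41 did so, among 23284 genes in the tables. The symbols AF067061, Dub2, Gm20767, Gm6763, Gm7982 and Pramef25 were not matched. Dub2 and the matched Usp17l5 are both synonyms of the same RefSeq gene, Usp17lc. Of the 41 genes, 37 had at least 1 count in the 12 libraries, and Tdpoz5, Dub2a, Gm4027 and Gm13043 stood at 0 counts in every library, which allows up to 3 counts in each.

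MERVL is an endogenous retrovirus of the mouse whose long terminal repeats act as promoters in the 2-cell embryo, so that many transcripts of that stage begin in or beside a copy of it. The transcription factor Dux binds such repeats and switches on both the virus and nearby genes, and the program is transient in the embryo and recurs in rare 2-cell-like cells of embryonic stem cell cultures. RNA of LINE1, an abundant retrotransposon, has been described in mouse embryonic stem cells and embryos as acting with Ncl and Trim28 to repress Dux.

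Zygotes of C57BL/6J mice (5 to 8 week old females, 2 to 6 month old males) received by microinjection 0.75 mM of a LINE1 antisense oligonucleotide (ASO) or of the control ASO, named RC. Total RNA was sequenced from whole embryos of 2 stages. Those of early 2C were taken some 9 h past microinjection, which was roughly 33 h post hCG, and those of 4C following 2 days of culture. The 4 groups, early 2C RC, early 2C LINE1 ASO, 4C RC and 4C LINE1 ASO, held 3 libraries each. The labels give neither the number of embryos per library nor whether replicates were separate pools, so the p-values below take in only how far these libraries differed among themselves, which may be technical variation.

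Libraries held 19160716 to 51854939 counts, of which the 41 genes took 0.118 to 0.15% at early 2C and 0.340 to 0.545% at 4C. Levels are given as CPM, counts scaled to a common library size with TMM factors over the 12 libraries, and because CPM is not corrected for transcript length, levels are compared between libraries and not between genes. Fewer cells of a type and less RNA per cell cannot be told apart in whole-embryo RNA, and LINE1 RNA itself was not analysed here, so there is no check of the knockdown. All 14 markers of the oocyte and early embryo were detected in every group. At 4C they summed to 1595 to 2074 CPM in RC and 1490 to 1733 CPM with the LINE1 ASO, with Oosp1 called higher (edgeR adjusted p = 0.0475) and a median log2 difference of 0.40. The 6 markers of the 4-cell embryo summed to 685 to 1059 CPM in 4C RC and to 230 to 642 CPM in 4C LINE1 ASO, groups that did not overlap, with Tead4 called lower (adjusted p = 0.0429) and a median of -1.14. At early 2C the same 6 summed to 267 to 369 CPM in RC and 240 to 262 CPM with the LINE1 ASO. The 6 did not all rise with stage: in RC embryos Klf5, Nanog and Tead4 were called higher at 4C than at early 2C, and Pou5f1 and Sox2 lower. Between the ASO groups at 4C, Tead4 was the only one of them called. The part of these markers in the LINE1 ASO differences given below was not tested. Markers of cumulus cells summed to at most 30.1 CPM at early 2C and 4.85 CPM at 4C, and the 5 blood markers to at most 1.52 CPM at early 2C and 1.27 CPM at 4C, with Hba-a1 and Hbb-b1 at 0 in every group. Of the blood markers Cd52 was called higher at 4C than at early 2C in LINE1 ASO embryos (adjusted p = 0.0147), from 0 counts in the early 2C libraries of that group. Sperm markers summed to at most 5.08 CPM at early 2C and 2.01 CPM at 4C. The 4 markers of fibroblasts and epithelium summed to at most 0.950 CPM at early 2C. At 4C they summed to 0.724 to 1.22 CPM in RC and 1.66 to 4.54 CPM with the LINE1 ASO. Those 4C groups did not overlap, and the 1 marker tested there was not called. Replicate 3 of 4C LINE1 ASO stood apart from replicates 1 and 2 in Dux, at 1.27 CPM against 43.0 and 45.8, and results at 4C are therefore also given without it. Because Dux acts upstream of MERVL-linked genes, this choice is not independent of their levels. Calls made without replicate 3 describe the libraries that were kept and are no separate support for a LINE1 ASO difference.

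Start regions of the genes were compared because MERVL-linked transcripts can share their promoters. RefSeq windows on GRCm38.p6, from 250 bases before to 50 bases after a gene's start, were held for 26 of the 41 genes, 28 windows among 32851. Those of Sp110, B020004J07Rik (RefSeq Pramel17), Gm8994 (RefSeq Eif4a3l1) and Gm4340, on chromosomes 1, 4, 6 and 10, shared sequence and are shown for that reason. They are printed 5′ to 3′ on the gene's strand, with capitals at the 63 bases covered by 15-mers present in all 4 windows. The windows lie at chr1:85603842-85604141 (minus strand), chr4:101843973-101844272 (minus), chr6:136327289-136327588 (plus) and chr10:104193792-104194091 (plus). Sp110 had 2 windows, and the one that shared more 15-mers is printed. It lies inside the RefSeq span of the gene, 85570735 to 85610850. Counts are per gene and do not tell the starts of Sp110 apart.
Sp110: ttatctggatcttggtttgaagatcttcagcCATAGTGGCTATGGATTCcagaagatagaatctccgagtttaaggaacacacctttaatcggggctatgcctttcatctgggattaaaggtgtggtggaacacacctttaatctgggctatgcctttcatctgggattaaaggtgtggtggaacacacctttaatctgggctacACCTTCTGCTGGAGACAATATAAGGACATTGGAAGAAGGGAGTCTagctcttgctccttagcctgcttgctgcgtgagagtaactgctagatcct
B020004J07Rik: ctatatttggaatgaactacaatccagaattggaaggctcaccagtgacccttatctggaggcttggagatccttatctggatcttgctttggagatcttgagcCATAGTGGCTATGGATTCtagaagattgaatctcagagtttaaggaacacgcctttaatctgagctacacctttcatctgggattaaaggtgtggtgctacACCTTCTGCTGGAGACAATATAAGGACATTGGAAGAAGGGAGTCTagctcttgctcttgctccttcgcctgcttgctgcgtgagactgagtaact
Gm8994: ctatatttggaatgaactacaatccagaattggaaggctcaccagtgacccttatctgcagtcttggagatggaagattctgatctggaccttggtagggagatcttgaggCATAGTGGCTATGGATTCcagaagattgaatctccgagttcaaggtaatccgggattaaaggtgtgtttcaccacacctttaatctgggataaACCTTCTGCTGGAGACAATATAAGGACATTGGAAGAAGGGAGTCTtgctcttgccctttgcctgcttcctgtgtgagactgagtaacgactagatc
Gm4340: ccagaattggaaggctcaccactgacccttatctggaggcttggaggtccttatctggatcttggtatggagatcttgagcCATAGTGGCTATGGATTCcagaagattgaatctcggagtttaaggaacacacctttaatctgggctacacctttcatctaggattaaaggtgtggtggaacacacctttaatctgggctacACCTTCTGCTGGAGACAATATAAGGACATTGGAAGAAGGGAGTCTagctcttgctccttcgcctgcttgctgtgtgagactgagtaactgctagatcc
The longest run common to the 4 windows had 45 bases, and Sp110 and Gm4340 shared a run of 100 bases. Between 62.7% of the bases, in Gm8994, and 98.3%, in Gm4340, were shared with at least 1 of the other windows. Every 15-mer common to the 4 was found in 13 of the 32851 windows (0.0396%). The common run holds the letters TATAA, which begin 27 to 30 bases before the annotated start in the 4 windows; 3.52% of all windows have TATAA between 40 and 20 bases before the start. No repeat annotation was used, so the shared stretch was not assigned to a repeat family.

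Many of the genes also resemble other genes along their transcripts, which bears on how reads were counted. In GENCODE M21 transcripts, 12 of the 41 genes shared at least 50% of their 50-mers, the length of the reads, with another gene, 16 shared 10 to 50% and 13 less than 10%. The 4 genes at 0 were among the first group: Tdpoz5 shared 100%, Gm13043 99.4%, Gm4027 94.4% and Dub2a 51.1%. Gm4340 shared 98.9%, Gm2022 97.2%, BB287469 96.6%, Gm5662 77.9% and BC080695 55.3%. Zfp750, Spz1, Slc10a6 and Fgf1 shared 0%. Counts of the copies are uncertain where reads could be split or dropped, and the Tdpoz, Dub, Tcstv and Pramef families were also tested as sums.

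**Figure D1:**
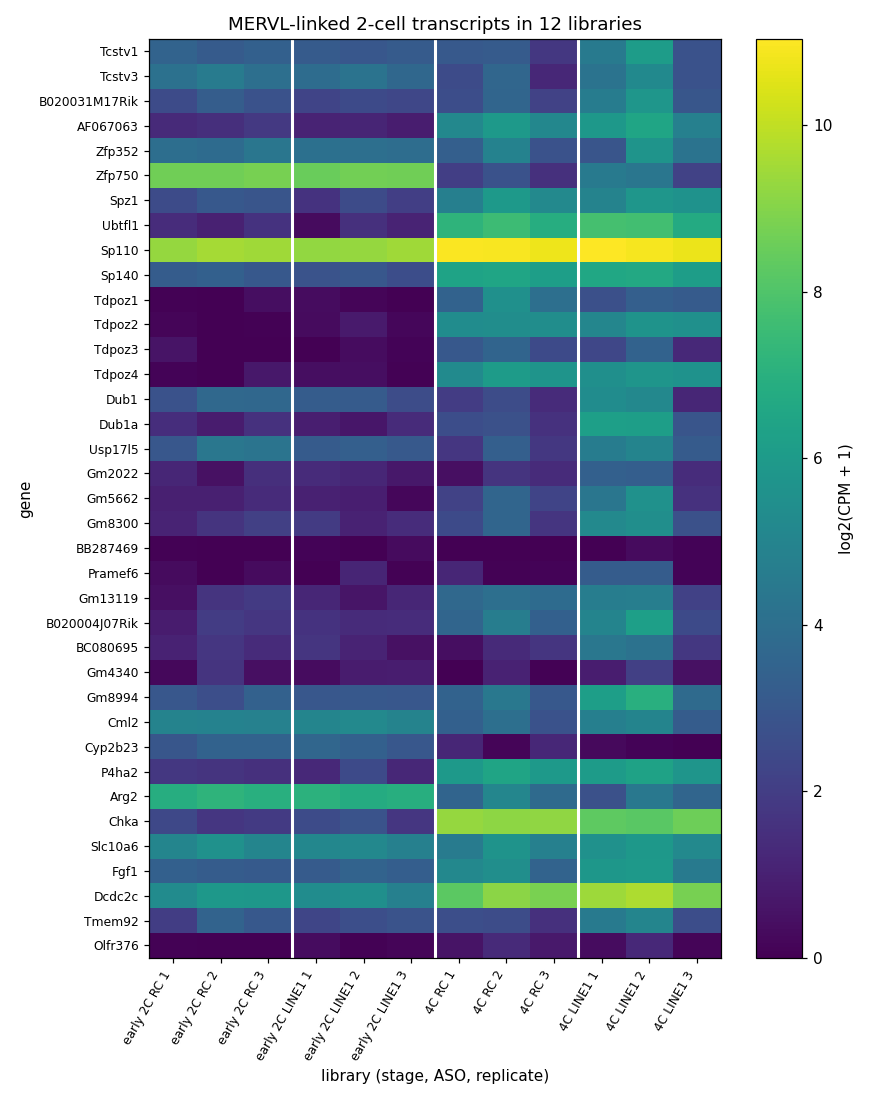
Level of the 37 genes with counts in each of the 12 libraries, as log2(CPM + 1), columns ordered by stage, ASO and replicate and white lines separating the 4 groups. Tdpoz and Ubtfl1 rows are dark at early 2C and bright at 4C, Zfp750 does the opposite, and replicate 3 of 4C LINE1 ASO is darker than replicates 1 and 2 for Dub1a, BC080695 and the Tcstv genes.

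The first comparison asks how the genes moved in development, from early 2C to 4C in RC embryos. Of 36 genes tested, 17 were higher at 4C and 6 were lower (edgeR quasi-likelihood test, Benjamini-Hochberg adjusted p under 0.05). This is 23 of 36 genes against 72.7% of all 15760 genes tested, with 36.1% of all genes higher and 36.6% lower, since most of the transcriptome changed between the stages. The median log2 change of the 36 genes was 1.45, against 0.09 over all genes. In LINE1 ASO embryos the same comparison called 26 genes higher and 3 lower, against 37.6% and 34.2% of all genes (71.8% in either direction), with a median of 3.31 against 0.24. Tdpoz1, Tdpoz2, Tdpoz3, Tdpoz4 and Olfr376 had too few counts to be tested at early 2C. They entered the stage comparisons through their 4C counts, so a call could hardly be other than a rise. All are among the 17 higher in RC embryos, and the Tdpoz genes are also among the 26. Cyp2b23, called lower in both ASO groups, had too few counts to be tested at 4C and entered through early 2C. Stage and any difference in the handling of the stages cannot be told apart.

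The second comparison asks what the LINE1 ASO changed at early 2C. None of 30 genes tested passed (0 of 30, background 0.367% of 13625 genes, edgeR), 4 had an unadjusted p under 0.05 against 8.84% of all genes, and DESeq2 called 0 of the 16 for which it gave an adjusted p, against 1.95% of all genes. The estimates leaned downward, 25 below 0 and 5 above with a median of -0.34, against a median of -0.01 and 47.9% of genes above 0 overall. In 4 genes, Tcstv1, B020031M17Rik, AF067063 and Sp140, all 3 LINE1 ASO libraries lay below all 3 RC libraries, against 6.41% of all genes.

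At 4C, 35 genes were tested between LINE1 ASO and RC, and 2 passed, BC080695 higher and Chka lower, against 4.53% of 14231 genes (1.93% higher, 2.61% lower; edgeR). A further 13 of the 35 had an unadjusted p under 0.05, 15 in all, against 22.2% of all genes. Estimates were above 0 for 26 genes, with a median of 0.69 against 0.05 over all genes, of which 52.7% were above 0. The libraries did not act alike: of the 37 genes with counts, 22 lay above the RC range in replicate 1 of LINE1 ASO, 27 in replicate 2 and 4 in replicate 3. Below the RC range lay 6, 3 and 14 genes in the same order. Shares over all genes were not computed for single libraries. In 19 of the 35 tested genes replicates 1 and 2 were above all RC libraries and replicate 3 was not, against 12.7% of all genes. All LINE1 ASO libraries lay above all RC libraries in 2 of the 35, against 15.7% of all genes, and below them in 2, against 11.5%. Without replicate 3 of LINE1 ASO, the library set apart by its Dux level, 15 of 36 genes were higher and 1 lower, against 4.89% and 9.38% of all genes (14.3% in either direction). Leaving out any of the other 5 libraries of 4C left 0 genes called. DESeq2 on all 6 libraries called 6 higher and 2 lower, against 11.4% of all genes with an adjusted p.

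The last comparison asks whether the LINE1 ASO difference at 4C departs from that at early 2C. None of the 36 genes passed the stage by ASO interaction (0 of 36, background 1.12%, edgeR), 17 had an unadjusted p under 0.05 against 17.5% of all genes, and DESeq2 called 10 of 35, against 6.13% of all genes with an adjusted p. The median interaction was 1.07 on the log2 scale, against 0.19 over all genes.

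**Figure D2:**
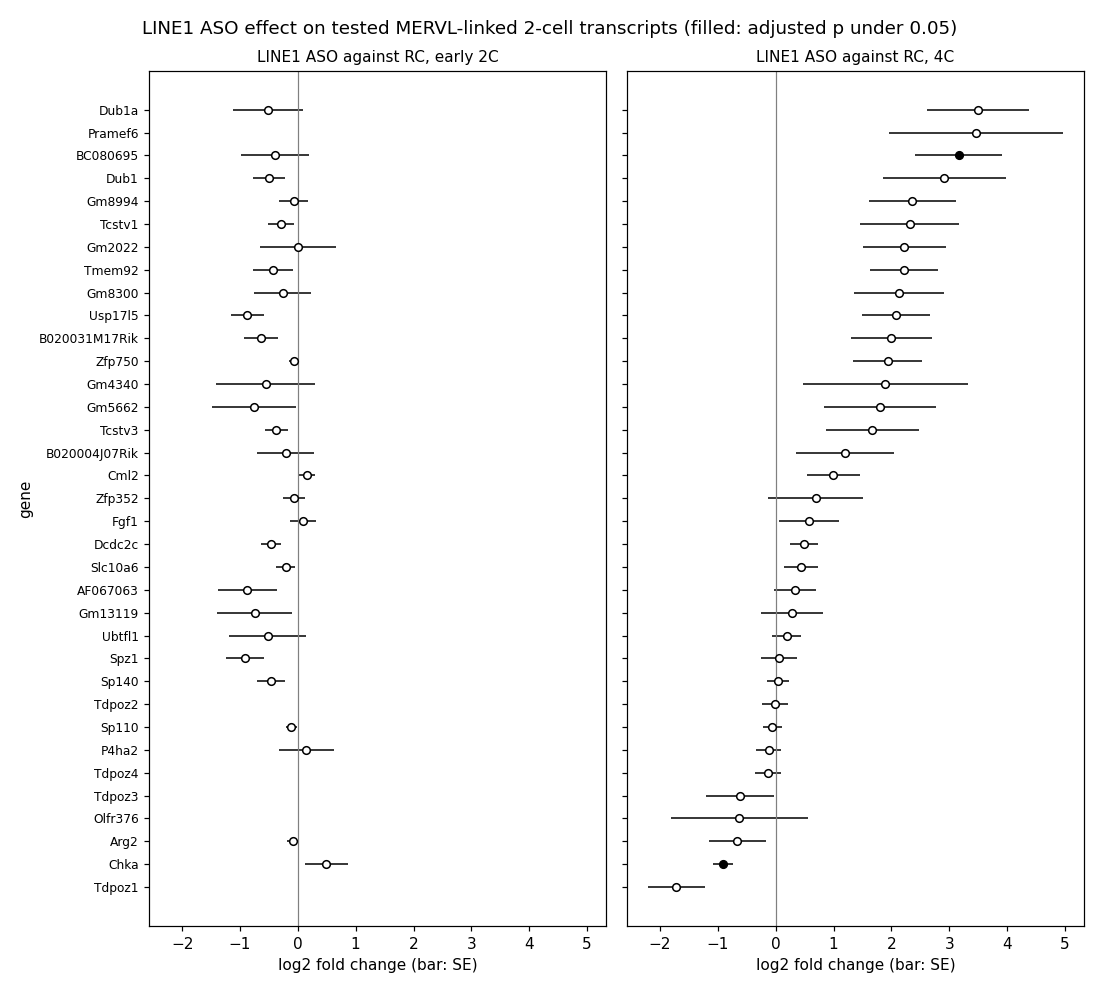
Log2 fold change of LINE1 ASO against RC for each tested gene, at early 2C on the left and at 4C on the right, with bars of 1 SE and filled points for an adjusted p under 0.05. Points at early 2C lie between -0.92 and 0.49 and are all open, while those at 4C reach 3.50, with BC080695 and Chka filled.

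Among the genes of the 2-cell cluster on chromosome 13, Tcstv1 and Tcstv3 (2-cell-stage variable group members, which lengthen telomeres when overexpressed in mouse embryonic stem cells) were low to moderate throughout. Tcstv1 stood at 10.5, 7.99 and 9.45 CPM in early 2C RC and 7.92, 7.001 and 7.88 CPM with the LINE1 ASO, then at 7.50, 8.05 and 2.41 CPM in 4C RC and 22.3, 67.8 and 5.82 CPM with the LINE1 ASO. Replicates 1 and 2 of 4C LINE1 ASO were above the RC range and replicate 3 was inside it. The 4C log2 difference was 2.32 (SE 0.856, adjusted p = 0.166, edgeR) and became 2.77 (adjusted p = 0.00621) without replicate 3. Tcstv1 was called between stages in LINE1 ASO embryos (log2 2.07, SE 0.624, adjusted p = 0.00767) and not in RC embryos (-0.64, adjusted p = 0.359). That call ended without replicate 2 of 4C LINE1 ASO (adjusted p = 0.159).

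Tcstv3 had 16.4, 23.4 and 15.4 CPM in early 2C RC, 13.9, 17.4 and 11.7 CPM in early 2C LINE1 ASO, 4.75, 11.6 and 1.37 CPM in 4C RC, and 17.6, 36.7 and 5.90 CPM in 4C LINE1 ASO. It fell between the stages in RC embryos, the groups not overlapping (log2 -1.64, SE 0.631, adjusted p = 0.0286, edgeR). In 3 of the 12 fits without 1 library the call was lost, with an adjusted p up to 0.0889. The LINE1 ASO difference at 4C was 1.66 (SE 0.804, adjusted p = 0.270). AF067063 and B020031M17Rik, neighbours in the cluster, differed from each other in development: AF067063 rose from 1.52, 1.83 and 2.52 CPM to 35.1, 60.4 and 33.9 CPM in RC embryos (log2 4.46, adjusted p = 1.06e-07), and B020031M17Rik had 4.82, 8.61 and 5.79 CPM at early 2C and 5.12, 11.3 and 3.58 CPM at 4C. AF067063 shared 70.7% of its 50-mers with Gm21731, so its counts are uncertain, while B020031M17Rik shared 2.97% with other genes. The 4C LINE1 ASO estimates were 2.00 for B020031M17Rik and 0.33 for AF067063, and neither passed.

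The genes of transcription and chromatin held both the strongest fall and some of the steadiest rises. Zfp750, a zinc finger factor of epidermal differentiation, was at 394, 397 and 430 CPM in early 2C RC and at 364, 405 and 402 CPM with the LINE1 ASO. At 4C it was at 3.17, 5.79 and 1.93 CPM in RC and 21.4, 19.3 and 3.55 CPM with the LINE1 ASO. Every 4C library lay far below every early 2C library, with a log2 change of -6.82 in RC embryos (SE 0.558, adjusted p = 2.04e-08, edgeR) and of -4.73 in LINE1 ASO embryos (SE 0.495, adjusted p = 4.10e-07). The 4C difference between the ASO groups was 1.93 (SE 0.595, adjusted p = 0.0779) and passed without replicate 3 (2.35, adjusted p = 0.00332).

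Ubtfl1, a preimplantation gene related to the nucleolar factor Ubtf, moved the other way. Its levels were 1.61, 1.03 and 2.06 CPM in early 2C RC, 0.237, 1.93 and 1.16 CPM in early 2C LINE1 ASO, 143, 186 and 117 CPM in 4C RC, and 222, 207 and 107 CPM in 4C LINE1 ASO. It rose between stages in both ASO groups (log2 6.57, SE 0.519, adjusted p = 1.34e-08 in RC, and 7.44, SE 0.542, adjusted p = 6.16e-09 with the LINE1 ASO, edgeR). The 4C groups overlapped, and their difference was 0.19 (SE 0.256, adjusted p = 0.720).

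Spz1, a basic helix-loop-helix zipper factor of the testis, had 4.69, 7.22 and 6.59 CPM in early 2C RC, 2.09, 4.71 and 3.12 CPM in early 2C LINE1 ASO, 26.0, 61.7 and 35.1 CPM in 4C RC, and 30.1, 54.4 and 49.0 CPM in 4C LINE1 ASO. It rose by 2.73 in RC (SE 0.376, adjusted p = 7.88e-06, edgeR) and by 3.76 with the LINE1 ASO (SE 0.395, adjusted p = 4.11e-07). Its ASO groups overlapped at both stages; at early 2C the difference was -0.92 (SE 0.328, adjusted p = 0.350), the lowest estimate of the 30 genes there.

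Sp110 and Sp140, nuclear body proteins known from immune cells, lie side by side on chromosome 1, where their RefSeq spans overlap. Sp110, with the inner of its 2 windows printed above, had 618, 752 and 700 CPM in early 2C RC, 601, 619 and 702 CPM in early 2C LINE1 ASO, 1999, 1956 and 1725 CPM in 4C RC, and 2098, 1907 and 1691 CPM in 4C LINE1 ASO. Stages did not overlap and ASO groups did: the gene rose by 1.46 in RC embryos (SE 0.132, adjusted p = 6.38e-08, edgeR) and by 1.57 in LINE1 ASO embryos (SE 0.132, adjusted p = 3.15e-08), and the ASO difference at 4C was -0.06 (SE 0.163, adjusted p = 0.865).

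Sp140 stood at 8.15, 9.49 and 7.28 CPM in early 2C RC, 6.17, 6.88 and 5.11 CPM in early 2C LINE1 ASO, 83.1, 88.5 and 71.1 CPM in 4C RC, and 93.0, 100 and 69.1 CPM in 4C LINE1 ASO. At early 2C the LINE1 ASO libraries were all below the RC libraries, with a difference of -0.46 that did not pass (SE 0.243, adjusted p = 0.631, edgeR). Sp140 rose by 3.28 between stages in RC (SE 0.213, adjusted p = 1.36e-09) and by 3.85 with the LINE1 ASO (SE 0.218, adjusted p = 3.78e-10). Sp140 shared 57.3% of its 50-mers with other genes, the most with Gm17017 (20.6%). Sp110 shared 42.3% with other genes, the most with Gm16026 (26.7%). Because of this sharing and the overlap of their spans, the counts of Sp140 and Sp110 are uncertain.

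Zfp352, a zinc finger gene long used as a mark of the 2-cell embryo, had 14.997, 13.6 and 19.1 CPM in early 2C RC, 15.8, 15.5 and 14.5 CPM in early 2C LINE1 ASO, 8.99, 28.9 and 5.96 CPM in 4C RC, and 6.50, 51.4 and 17.1 CPM in 4C LINE1 ASO. Replicates were close at early 2C and spread widely at 4C, and all groups overlapped between ASOs and between stages. No comparison called it; the 4C LINE1 ASO estimate was 0.69 (SE 0.826, adjusted p = 0.682, edgeR) and turned negative without replicate 2 of LINE1 ASO.

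The Tdpoz genes of chromosome 3 encode proteins with a TRAF-like and a POZ domain, relatives of the ubiquitin ligase adaptor Spop. All 4 that were tested rose from early 2C to 4C in both ASO groups, and all 4 had negative LINE1 ASO estimates at 4C, none of them called. None of the 4 had enough counts to be tested at early 2C. They passed the low-count filter through their 4C counts, so the direction of their stage change was largely set by that filter. Tdpoz4, the most abundant copy, had 0.0845, 0 and 0.648 CPM in early 2C RC, 0.324, 0.322 and 0.0350 CPM in early 2C LINE1 ASO, 37.6, 65.7 and 50.9 CPM in 4C RC, and 44.3, 53.7 and 48.6 CPM in 4C LINE1 ASO. The gene was near the limit of detection at the first stage, so its log2 changes of 7.68 in RC (SE 0.680, adjusted p = 5.15e-08, edgeR) and 7.67 with the LINE1 ASO (SE 0.671, adjusted p = 5.06e-08) depend on few counts there.

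Tdpoz1 was the copy with the largest LINE1 ASO estimate at 4C. Its levels there were 10.01, 46.0 and 15.4 CPM in RC and 5.43, 9.25 and 8.10 CPM with the LINE1 ASO, after 0.0422, 0 and 0.343 CPM and 0.281, 0.121 and 0 CPM at early 2C. The 3 LINE1 ASO libraries, replicate 3 included, lay below the 3 RC libraries, with a difference of -1.72 (SE 0.490, adjusted p = 0.0618, edgeR); DESeq2 called it. Between stages it rose by 7.47 in RC (SE 0.978, adjusted p = 4.49e-06) and by 5.63 with the LINE1 ASO (SE 0.903, adjusted p = 4.11e-05). Summed over the 5 copies, the family went from 0.760, 0 and 1.03 CPM to 95.5, 163 and 112 CPM in RC embryos (log2 7.70, SE 0.643, adjusted p = 2.59e-08), and the LINE1 ASO difference of the sum at 4C was -0.32 (SE 0.225, adjusted p = 0.447).

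**Figure D3:**
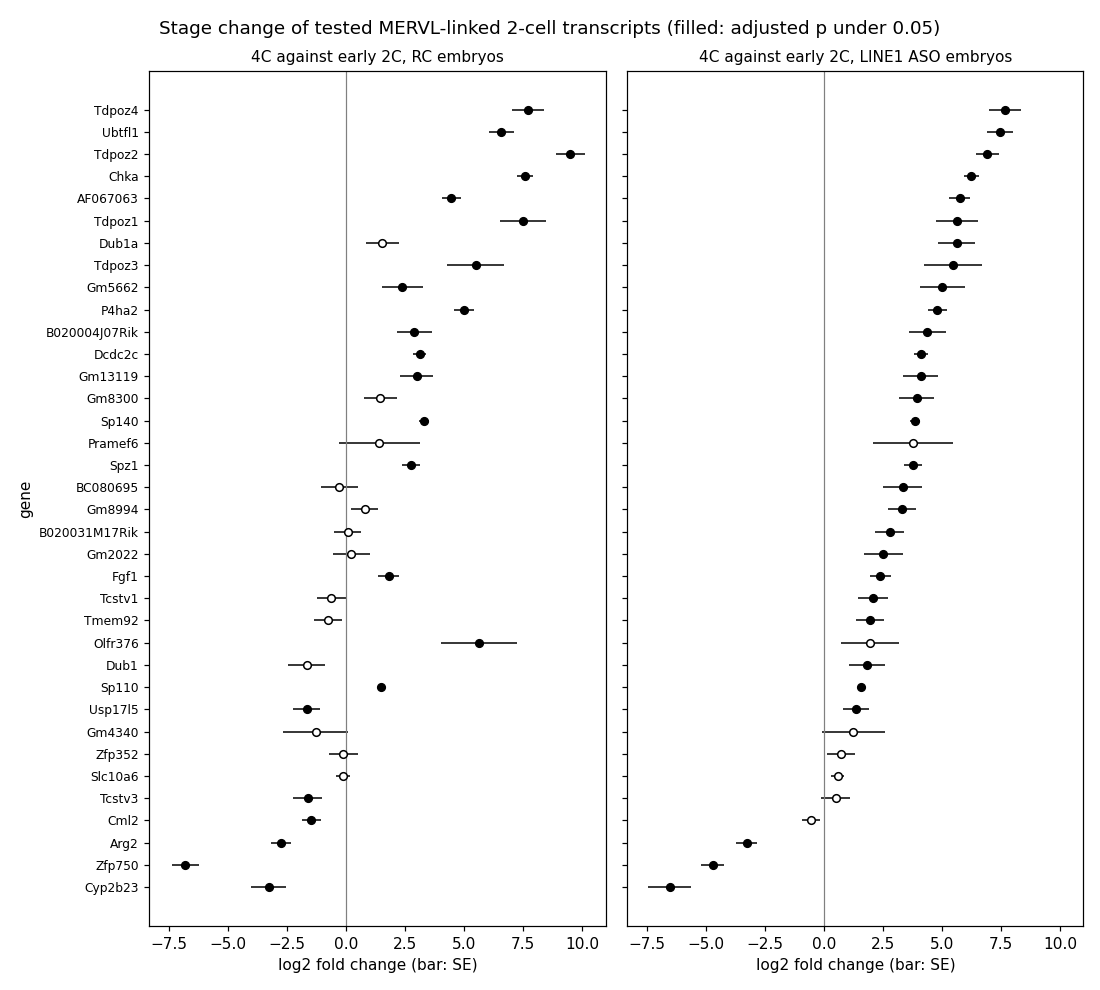
Log2 fold change from early 2C to 4C for each tested gene in RC embryos on the left and in LINE1 ASO embryos on the right, ordered by the latter, with bars of 1 SE and filled points for an adjusted p under 0.05. Tdpoz genes, Ubtfl1 and Chka lie far to the right in both panels, Zfp750, Arg2 and Cyp2b23 to the left, and Usp17l5 lies at -1.67 on the left and 1.36 on the right.

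The Dub or Usp17-like genes of chromosome 7 encode cytokine-inducible deubiquitinating enzymes. Usp17l5 (RefSeq Usp17lc) had 7.10, 19.6 and 17.9 CPM in early 2C RC, 7.88, 9.01 and 7.57 CPM in early 2C LINE1 ASO, 2.38, 9.17 and 2.45 CPM in 4C RC, and 23.7, 31.0 and 7.99 CPM in 4C LINE1 ASO. It was called lower at 4C in RC embryos (log2 -1.67, SE 0.567, adjusted p = 0.0149, edgeR) and higher at 4C in LINE1 ASO embryos (1.36, SE 0.555, adjusted p = 0.0382), although the stages overlapped in both. The test of this divergence, the interaction, gave 3.03 (SE 0.793, adjusted p = 0.0717). In 3 and 8 of 12 fits without 1 library, the fall in RC and the rise with the LINE1 ASO were no longer called.

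Dub1a (RefSeq Usp17lb) had the largest LINE1 ASO estimate at 4C of all 35 genes. It stood at 1.73, 0.769 and 1.94 CPM in early 2C RC and 0.928, 0.604 and 1.58 CPM with the LINE1 ASO, then at 5.12, 5.65 and 1.97 CPM in 4C RC and 75.04, 72.3 and 6.48 CPM with the LINE1 ASO. All 3 LINE1 ASO libraries lay above the RC range at 4C, the third only just, and the difference was 3.50 (SE 0.879, adjusted p = 0.0667, edgeR). Without replicate 3 it was 3.98 (adjusted p = 4.37e-05), and between stages in LINE1 ASO embryos Dub1a rose by 5.62 (SE 0.791, adjusted p = 1.06e-05).

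Dub1 (RefSeq Usp17la) had 39.8, 34.2 and 1.27 CPM in 4C LINE1 ASO against 2.84, 4.99 and 1.53 CPM in 4C RC. Summed over the 4 copies, the family stood at 10.3, 19.8 and 5.96 CPM in 4C RC and at 139, 138 and 15.7 CPM in 4C LINE1 ASO, the third of which lay inside the RC range. That difference was 2.92 (SE 0.818, adjusted p = 0.0910, edgeR). At early 2C the sums were 14.6, 32.6 and 31.6 CPM in RC and 17.2, 17.5 and 14.0 CPM with the LINE1 ASO, a difference of -0.70 (SE 0.235, adjusted p = 0.321). The interaction of the family sum passed at 3.71 (SE 0.841, adjusted p = 0.0476), and it was called in 2 of the 12 fits without 1 library (adjusted p up to 0.128).

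Gm2022, Gm5662 and Gm8300 lie on chromosome 12 and shared 97.2%, 77.9% and 26.6% of their 50-mers with other genes. Gm2022 had 1.27, 0.403 and 1.83 CPM in early 2C RC, 1.58, 1.29 and 0.630 CPM in early 2C LINE1 ASO, 0.373, 2.16 and 1.53 CPM in 4C RC, and 9.53, 8.88 and 1.66 CPM in 4C LINE1 ASO. Replicates 1 and 2 of the last group were above the other libraries and replicate 3 was among them. The 4C estimates of the 3 genes were 2.22 for Gm2022 (SE 0.721, adjusted p = 0.0902, edgeR), 1.80 for Gm5662 (adjusted p = 0.330) and 2.13 for Gm8300 (adjusted p = 0.154), and the 3 passed without replicate 3. Between stages, Gm2022 rose by 2.51 in LINE1 ASO embryos (SE 0.806, adjusted p = 0.0112), with 0.22 in RC embryos (SE 0.787, adjusted p = 0.813).

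The Prame-like genes encode leucine-rich repeat proteins. Gm13119 (RefSeq Pramel31) had 0.380, 2.12 and 2.67 CPM in early 2C RC, 1.25, 0.563 and 1.26 CPM in early 2C LINE1 ASO, 12.2, 15.5 and 13.6 CPM in 4C RC, and 24.3, 25.6 and 3.40 CPM in 4C LINE1 ASO. The RC libraries of 4C were tight, with replicates 1 and 2 of LINE1 ASO above them and replicate 3 below them. It rose between the stages by 2.99 in RC (SE 0.698, adjusted p = 0.00122, edgeR) and by 4.09 with the LINE1 ASO (SE 0.733, adjusted p = 0.000122); the 4C ASO difference was 0.28 (SE 0.536, adjusted p = 0.802). Pramef6 (RefSeq Pramel11) had 8.16, 8.17 and 0.0724 CPM in 4C LINE1 ASO and 1.26, 0.0470 and 0.0805 CPM in 4C RC.

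Of the 4 genes with the shared start region, B020004J07Rik rose with Sp110 between the stages in RC embryos (log2 2.88, SE 0.734, adjusted p = 0.00238, edgeR), from 0.803, 2.89 and 2.33 CPM to 11.04, 24.4 and 9.30 CPM. The counts of Sp110 are not specific to the shared start. Gm8994 had 7.01, 5.35 and 9.61 CPM and then 10.2, 20.3 and 7.20 CPM, and was not called in RC embryos (0.77, SE 0.556, adjusted p = 0.221). With the LINE1 ASO, Gm8994 reached 71.1, 122.6 and 13.1 CPM at 4C and rose between stages by 3.30 on the log2 scale (SE 0.592, adjusted p = 0.000125). The 4C LINE1 ASO estimates of the 4 genes were -0.06 for Sp110, 1.20 for B020004J07Rik, 1.89 for Gm4340 and 2.36 for Gm8994, none called (adjusted p = 0.865, 0.461, 0.475 and 0.120). Gm4340 was at most 3.23 CPM in any library.

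BC080695, a gene for which no role is given here, was the 1 gene called higher with the LINE1 ASO at 4C. It had 1.10, 2.38 and 1.60 CPM in early 2C RC, 2.25, 1.17 and 0.420 CPM in early 2C LINE1 ASO, 0.326, 1.51 and 2.29 CPM in 4C RC, and 19.5, 16.9 and 2.50 CPM in 4C LINE1 ASO. The groups of 4C did not overlap, but replicate 3 was only just above the RC range. The difference was 3.16 (SE 0.755, adjusted p = 0.0397, edgeR), and without 1 library it was called only without replicate 3 of LINE1 ASO (adjusted p = 0.000958); in the other 5 fits the adjusted p reached 0.135. Its transcript shares 49.6% of its 50-mers with Gm13040. That gene is also the one with which the Prame-like Gm13043 (99.4%) and Gm13119 (21.5%) share the most. BC080695 was not part of the Pramef sum, whose LINE1 ASO difference at 4C was 0.62 (SE 0.629, adjusted p = 0.616, edgeR).

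Chka, choline kinase alpha, which carries out the first step of phosphatidylcholine synthesis, was the 1 gene called lower. Its levels were 4.27, 2.38 and 2.67 CPM in early 2C RC, 4.79, 6.08 and 2.31 CPM in early 2C LINE1 ASO, 632, 563 and 588 CPM in 4C RC, and 310, 295 and 383 CPM in 4C LINE1 ASO. Replicates were tight and the 4C groups did not overlap, replicate 3 of LINE1 ASO included. The fall of 0.91 with the LINE1 ASO (SE 0.176, adjusted p = 0.0200, edgeR) stayed between -1.10 and -0.82 without any 1 library, but was called in 1 of the 6 such fits, with an adjusted p up to 0.0958. Between stages Chka rose by 7.59 in RC (SE 0.336, adjusted p = 2.44e-11) and by 6.23 with the LINE1 ASO (SE 0.314, adjusted p = 1.08e-10), and the interaction of -1.36 did not pass (SE 0.377, adjusted p = 0.0877).

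**Figure D4:**
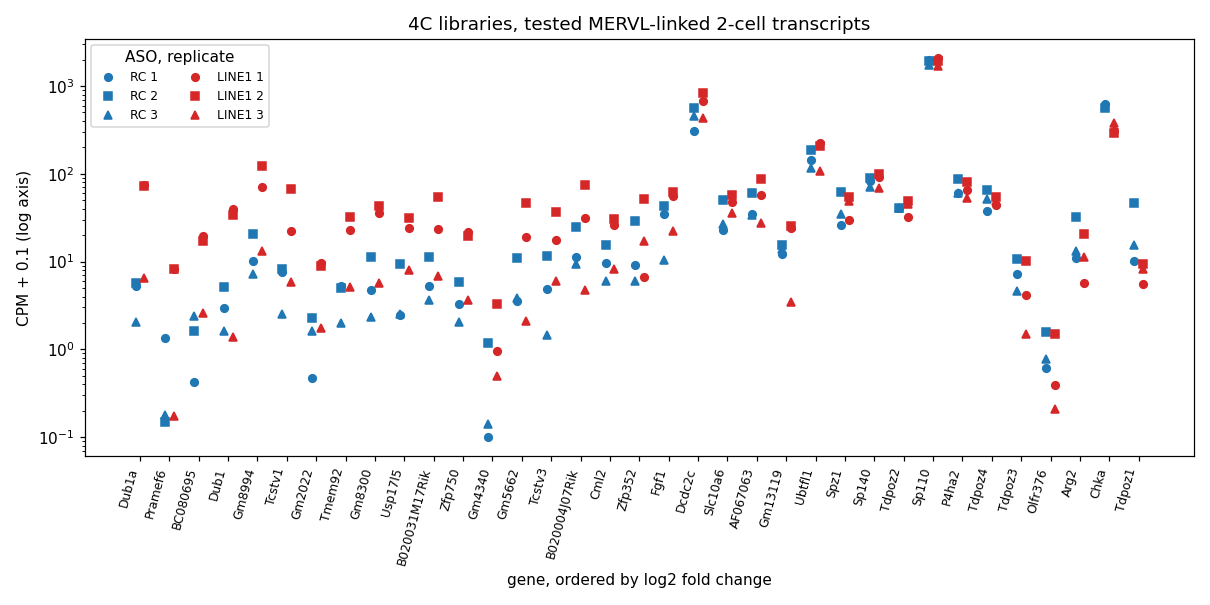
Level of each tested gene in the 6 libraries of 4C, as CPM + 0.1 on a log axis, with genes ordered by log2 fold change of LINE1 ASO against RC, blue for RC, red for LINE1 ASO and the symbol shape for the replicate number. Toward the left, the red circles and squares of replicates 1 and 2 lie above the blue points for Dub1a, BC080695 and Gm2022, while the red triangles of replicate 3 lie among or near them; Chka at the right has all red points below the blue ones.

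Dcdc2c, a doublecortin domain gene, had 39.0, 57.2 and 56.3 CPM in early 2C RC, 40.5, 43.7 and 27.2 CPM in early 2C LINE1 ASO, 305, 559 and 455 CPM in 4C RC, and 682, 826 and 430 CPM in 4C LINE1 ASO. It rose by 3.11 in RC (SE 0.281, adjusted p = 6.49e-08, edgeR) and by 4.12 with the LINE1 ASO (SE 0.294, adjusted p = 4.85e-09), and its 4C groups overlapped (0.49, SE 0.246, adjusted p = 0.267). P4ha2, a collagen prolyl hydroxylase subunit, went from 2.45, 2.16 and 1.91 CPM to 60.4, 86.8 and 60.6 CPM in RC embryos, and from 1.38, 4.59 and 1.37 CPM to 66.1, 80.8 and 53.2 CPM in LINE1 ASO embryos. Its rise was 4.99 in RC embryos (SE 0.421, adjusted p = 2.93e-08) and 4.80 in LINE1 ASO embryos (SE 0.415, adjusted p = 4.46e-08), with an interaction of -0.19 (95% interval -1.22 to 0.83, SE 0.524, adjusted p = 0.891).

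Arg2, Cyp2b23 and Cml2 were lower at 4C in RC embryos, 3 of the 11 tested genes grouped as enzymes and others, against 36.6% of all genes. Another 5 of the 11 were higher, Chka and P4ha2 among them, against 36.1% of all genes. Arg2, the mitochondrial arginase, had 115, 145 and 125 CPM in early 2C RC, 135, 111 and 120 CPM in early 2C LINE1 ASO, 10.8, 32.4 and 13.1 CPM in 4C RC, and 5.61, 20.6 and 11.2 CPM in 4C LINE1 ASO, a log2 change of -2.78 in RC (SE 0.421, adjusted p = 2.21e-05, edgeR) and of -3.29 with the LINE1 ASO (SE 0.431, adjusted p = 4.87e-06). Cyp2b23, a cytochrome P450, had 6.84, 10.1 and 10.03 CPM in early 2C RC and 11.6, 9.33 and 7.01 CPM with the LINE1 ASO, and at 4C 1.26, 0.0941 and 1.37 CPM and 0.222, 0.0673 and 0 CPM. Its log2 change was -3.30 in RC (SE 0.741, adjusted p = 0.000898) and -6.55 with the LINE1 ASO (SE 0.917, adjusted p = 1.01e-05). It was not tested between the 4C groups for want of counts.

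Cml2 (RefSeq Nat8f2), of a family of N-acetyltransferases, had 29.6, 28.6 and 27.7 CPM in early 2C RC, 31.7, 35.1 and 29.4 CPM in early 2C LINE1 ASO, 9.45, 15.3 and 5.87 CPM in 4C RC, and 26.2, 30.6 and 8.14 CPM in 4C LINE1 ASO. In RC embryos every 4C library was below every early 2C library (log2 -1.49, SE 0.405, adjusted p = 0.00386, edgeR). With the LINE1 ASO, replicate 2 of 4C overlapped the early 2C libraries and the change was -0.57 (SE 0.394, adjusted p = 0.208). The 4C difference, 0.99 (SE 0.460, adjusted p = 0.224), passed without replicate 3 (adjusted p = 0.0286).

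Among the remaining genes, Tmem92, a transmembrane protein, had 5.22, 4.94 and 1.89 CPM in 4C RC and 22.6, 31.9 and 5.03 CPM in 4C LINE1 ASO, with a difference of 2.21 that narrowly missed the threshold (SE 0.586, adjusted p = 0.0514, edgeR). Fgf1, a fibroblast growth factor, rose between the stages in both ASO groups (1.80, SE 0.442, adjusted p = 0.00177, and 2.37, SE 0.448, adjusted p = 0.000201). Slc10a6, a transporter of sulfated steroids, had 22.8 to 57.8 CPM in the 4C libraries and 27.1 to 46.2 CPM at early 2C and was called in no comparison. Olfr376, an odorant receptor gene, was at most 1.46 CPM.

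Known regulators of the program were read from lists of activators and repressors. Dux, the activator upstream, had 29.1, 27.1 and 35.6 CPM in early 2C RC, 27.2, 40.4 and 29.9 CPM in early 2C LINE1 ASO, 0.792, 0.0941 and 0.563 CPM in 4C RC, and 43.0, 45.8 and 1.27 CPM in 4C LINE1 ASO. Replicate 3 of the last group was thus close to the RC libraries, and the 4C difference just missed the threshold (5.85, SE 1.32, adjusted p = 0.0515, edgeR). Of 8 activators tested at 4C, Trp53 was higher with the LINE1 ASO (1.47, SE 0.258, adjusted p = 0.0172) and Dppa2 lower (-0.71, SE 0.179, adjusted p = 0.0429). Of 29 repressors, Rybp, a component of Polycomb complexes, was lower (-0.71, SE 0.184, adjusted p = 0.0459) and the other 28 were not called, so that 1 of 29 stood beside 4.53% of all genes called. Of the 6 fits without 1 library of 4C, Dppa2 and Rybp were called only in that without replicate 3 of LINE1 ASO (adjusted p up to 0.175 and 0.210 in the others). Trp53 was called in that fit and in the one without replicate 3 of RC (adjusted p up to 0.0870 in the others). With library totals, Dppa2 and Rybp had adjusted p = 0.0747 and 0.0656. At early 2C, 0 of the 8 activators and 0 of the 29 repressors passed, where 0.367% of all genes did.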

How the data were processed

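Per the labels' protocols, stranded libraries were made from 500 pg of column-extracted total RNA and read from 1 end for 50 nt. The authors deposited raw gene-level read counts, 1 table for each stage. The submitters' processing notes list TopHat2 2.0.9, Trim Galore 0.4.0, DESeq2 1.12.3 and R 3.3.0, with mm9 as the build and no role for each tool. The sources used here do not say with which annotation or strand setting reads were counted, so values of overlapping genes and near-identical copies are uncertain.

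Tests were run in R 4.3.3 on the counts by the robust quasi-likelihood F-test of edgeR 4.0.16, with TMM scaling, genes kept by filterByExpr and p-values adjusted by Benjamini-Hochberg over every gene tested (threshold 0.05). LINE1 ASO was compared with RC within a stage on 6 libraries; stage comparisons and the interaction used all 12 and share libraries with the ASO comparisons. Every adjusted p is from this test unless DESeq2 is named. The SE is the log2 change divided by the square root of F. Alternatives included DESeq2 1.42.0, size factors of DESeq2 within edgeR, scaling by library totals, absent or stricter low-count filters, a replicate block, family sums and leaving out each library. The tests were also tried on simulated counts.

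The genes and gene lists were chosen with earlier results of these data known. Values in every library are given for genes called in an ASO comparison, the 8 most abundant called in each stage comparison, those called against the majority direction, the most abundant copy of each family and 11 genes named always; others were named after their values were seen. Sequences are from RefSeq, on GRCm38.p6, which is not the build of the counts. The window and 50-mer comparisons, and the alternatives for family sums and regulators, were added after seeing the data.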

Additional observations from a re-analysis of the deposited data

Results flagged for a closer look

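None of the 36 genes passed the edgeR interaction test, where 1.12% of all genes did. Among the regulators, 2 of 8 activators and 1 of 29 repressors passed it, as did the Dub family sum. In these 4 values the LINE1 ASO difference at 4C departed from that at early 2C. They were Dux (log2 5.85, SE 1.18, adjusted p = 0.0386), the summed Dub family (3.71, SE 0.841, adjusted p = 0.0476), Trp53 (1.45, SE 0.333, adjusted p = 0.0498) and Cbx1, a heterochromatin protein of the repressor list (1.27, SE 0.284, adjusted p = 0.0468). Each stayed called in 2 of the 12 fits without 1 library, one of them in each case the fit without replicate 3 of 4C LINE1 ASO, and each kept its sign in all 12.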

How the results depend on the processing

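Log2 changes were recomputed under the alternatives for a set of named genes, not for every gene called. Of 2004 recomputed log2 changes, 57 changed sign, and 0 of these were called in the edgeR test. Counts of calls in the comparisons of stages stayed within 1.5 times. At early 2C, 1 gene was called without a low-count filter and 0 to 1 without 1 library (1 without replicate 1 of RC). At 4C, DESeq2 called 8 genes, the replicate block 11, and fits without 1 library 0 to 16. For the interaction, DESeq2 called 10, library totals 1, and fits without 1 library 0 to 14 (14 without replicate 3 of 4C LINE1 ASO). Library totals moved the median LINE1 ASO change of all genes at 4C from 0.05 to 0.23 on the log2 scale, and Sp110 to 0.12. At 4C, Gm13119 was -0.080 with the replicate block and -0.064 to 0.73 without 1 library, Zfp352 -0.35 to 1.68 and AF067063 -0.087 to 0.68. Without 1 library, the change of Gm2022 between stages in RC embryos was -0.28 to 0.72 and the interaction of P4ha2 -0.66 to 0.39.

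Of the family sums, at early 2C 1 was called without a filter and 0 to 1 without 1 library. At 4C, DESeq2 called 1, the replicate block 2 and fits without 1 library 0 to 3. Between stages in RC embryos the block called 4 and fits without 1 library 2 to 4. For the interaction, 0 were called with size factors of DESeq2, 0 without a filter, 0 with the block and 0 to 2 without 1 library.

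The replicate numbers were not taken to pair libraries. Same-numbered libraries correlated in their deviations by -0.0272 to 0.0225 between the ASO groups at early 2C, by 0.0155 to 0.0982 at 4C, by -0.0167 to 0.0205 between stages in RC and by 0.0133 to 0.0363 with the LINE1 ASO, each library matching its own number best in 0, 4, 4 and 6 of 6 cases. With the block, BC080695 had an adjusted p of 0.0945 at 4C; without a low-count filter it had 0.0661. The cause of these changes was not tested. Genes of few counts are limited by depth, and those of near-identical copies by the counting of reads.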

Other observations

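Start regions like that of Sp110 were also found at genes outside the list. Windows with at least 50 of the 15-mers that at least 2 of the 4 printed windows share numbered 25 of 32851 (0.0761%) and belonged to 24 genes. Apart from the genes printed above, 6 of these genes were in the count tables and tested, 2310039L15Rik, Arih2, D17Ertd648e, Esp24, Pemt and Sgk1. All 6 were called higher at 4C than at early 2C in RC embryos (edgeR), with log2 changes from 2.87 for D17Ertd648e to 6.30 for Pemt, a methyltransferase of phosphatidylcholine synthesis, against 36.1% of all genes called higher. With the LINE1 ASO at 4C, Sgk1, a serum- and glucocorticoid-regulated kinase, was lower (-0.90, SE 0.203, adjusted p = 0.0297) and the other 5 were not called. These genes were picked by their start regions after the sequences had been compared, and the relation between start region and level was not tested.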
